A study of Mus musculus with 18 samples.

Results

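The difference between fat cells and the other cells of the same fat was compared between interscapular brown and epididymal fat. For each gene the difference adipocyte minus stromal-vascular fraction (SVF) was taken in brown fat, the same difference was taken in epididymal fat, and the second was subtracted from the first; the result is called the interaction here, on a log2 scale. It uses 12 of the 18 one-colour arrays, 3 in each of 4 groups: brown SVF, brown adipocytes, epididymal SVF and epididymal adipocytes. The labels name the epididymal samples "vis". All 4 groups are from C57BL/6 males described as young adult, and the labels name no drug, diet, transgene or mutation. The labels call the samples biological triplicates and do not say how many animals went into one, so p-values measure the spread between these samples. Fat was digested with collagenase, floating cells became the adipocyte fraction, and the pellet, after lysis of red cells, became the SVF. The other 6 arrays, of inguinal fat, take no part in the comparison.

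Brown adipocytes burn fatty acids in mitochondria that the uncoupling protein Ucp1 makes leaky, which releases heat. Epididymal adipocytes are white: they store triglyceride in a single droplet and secrete hormones such as leptin. The SVF holds what surrounds them: progenitors and fibroblasts, vessel wall cells, endothelium and immune cells, and around epididymal fat also the mesothelial lining of the abdominal cavity. A gene has an interaction when its fraction difference is unequal in the depots. A positive interaction can come from a high level in brown adipocytes or in epididymal SVF, or from a low level in brown SVF or in epididymal adipocytes; a negative one from the reverse. Each gene is therefore given with the group mean that stands apart.

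Levels are log2 processed signal relative to the 75th percentile of the array, so a level of 0 is that percentile, and levels of different genes are not compared. Among the 12 arrays the 75th percentile signal was 338 to 475 in the brown adipocytes and 416 in epididymal adipocyte replicate 3, and higher on the other 8, and the share of spots well above background ran from 49.6% to 72.3% apart from epididymal adipocyte replicate 1 (87.9%). The 3 epididymal adipocyte arrays were read with another scanner model and an older software version than the other 9 arrays. Their scan days hold no other of these groups. Group and scanner therefore cannot be told apart for any level of epididymal adipocytes. That group enters every interaction, so the limit holds for all interactions, their counts and the groups that drive them. Adipocyte markers fitted the fractions: the adiponectin gene Adipoq was at 8.34, 7.58 and 8.01 in brown and 8.17, 8.15 and 8.25 in epididymal adipocytes, against 3.15, 7.16 and 4.42 in brown and 4.30, 4.41 and 2.85 in epididymal SVF. Adipoq in brown SVF replicate 2 thus came close to the adipocytes. In epididymal adipocyte replicate 3 the brown fat genes Ucp1 (4.51) and Cidea (6.46) were far above replicates 1 and 2 (at most -1.05 and 2.92), so the counts of called genes, also by gene list, and the values of the genes given on all 12 arrays are printed without that array too.

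The interaction was called for 1359 of 19383 genes (7.01%), with 499 higher (2.57%) and 860 lower (4.44%), by limma with a Benjamini-Hochberg adjusted p under 0.05. The fraction difference alone was called for 29.3% of genes in brown and 35.2% in epididymal fat. Of the 1359 genes, 633 had a called fraction difference in brown fat only and 425 in epididymal fat only. Another 173 had it in both in the same direction and 125 in both in opposite directions, and 3 had none. The classes before the last held 46.6%, 31.3%, 12.7% and 9.2% of the called genes, beside 15.7%, 21.7%, 12.9% and 0.645% of all genes. The class in both in the same direction was thus near its share of all genes. The depots differed by the test in the adipocytes only for 1088 called genes and in the SVF only for 115. These are 80.1% and 8.46% of the called genes, beside 35.8% and 1.285% of all genes. The interaction is computed from these same fraction and depot differences, so choosing genes by it sets part of both splits in advance. All 125 genes with opposite called fraction differences were among the 1359. Counted with or without the other fraction, the adipocytes of the depots differed for 38.8% of all genes and the SVFs for 4.21%. The split into higher and lower genes moved with the processing: quantile normalization called 801 higher and 863 lower, the deposited matrix, whose normalization is not given in the sources used here, 808 and 739, and a filter to probes above background on all 12 arrays 645 and 473. Fitted with all 18 arrays, which adds the spread of the inguinal arrays, the count was 399. The count also moved by over 1.5 times without single arrays: it was 774, 583, 654 and 763 without brown SVF replicates 1 and 3 and brown adipocyte replicates 1 and 3, 470 without epididymal SVF replicate 2, and 796, 3006 and 658 without epididymal adipocyte replicates 1, 2 and 3.

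**Figure D1:**
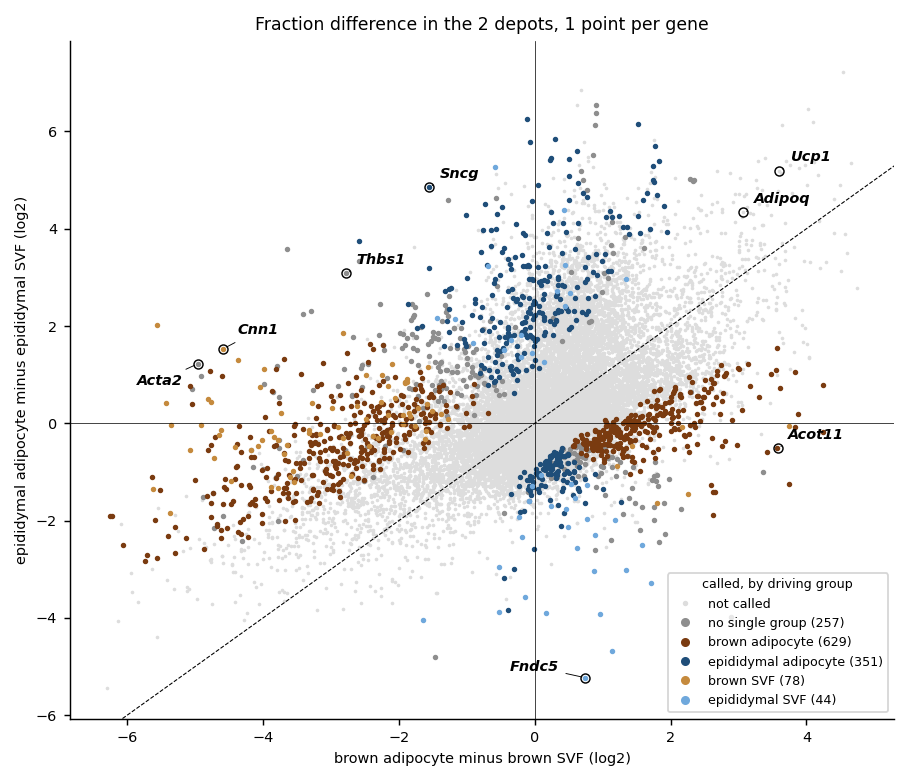
Fraction difference in brown fat (horizontal axis, log2) against epididymal fat (vertical axis, log2), 1 point per gene of 19383. Grey points were not called; the 1359 called genes are coloured by the group whose mean stands apart. The distance from the dashed line of equality is the interaction: Acot11 and Fndc5 lie far below it, Sncg, Thbs1, Acta2 and Cnn1 far above it, and Ucp1 and Adipoq lie closer to it and were not called.

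A group was taken to drive a gene when its mean lay farther from the nearest other mean than the other 3 means lay from each other. By this rule brown adipocytes drove 629 of the 1359 called genes, 277 above and 352 below the other groups. Epididymal adipocytes drove 351, of which 241 were above and 110 below. Brown SVF drove 78 (72 above and 6 below) and epididymal SVF 44 (27 above and 17 below), and 257 had no single driving group. Adipocyte means therefore drove most of the called genes, though for epididymal adipocytes this was near their share of all genes, given below. Which adipocytes drove more depended on the arrays and the processing: brown adipocytes drove 46.3% of the called genes and epididymal adipocytes 25.8%, but 25.1% and 56.8% without epididymal adipocyte replicate 2, 36.1% and 38.3% after quantile normalization, and 31.7% and 44.5% with a replicate block within depot. Without brown SVF replicate 2 and brown adipocyte replicate 2 the share of epididymal adipocytes was 15.5% and 17.1%. Over all 19383 genes the shares were 23.5% for brown adipocytes, 24.4% for epididymal adipocytes, 4.47% for brown SVF, 5.75% for epididymal SVF and 41.9% for none, so the adipocyte groups were the most frequent drivers there too.

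**Figure D2:**
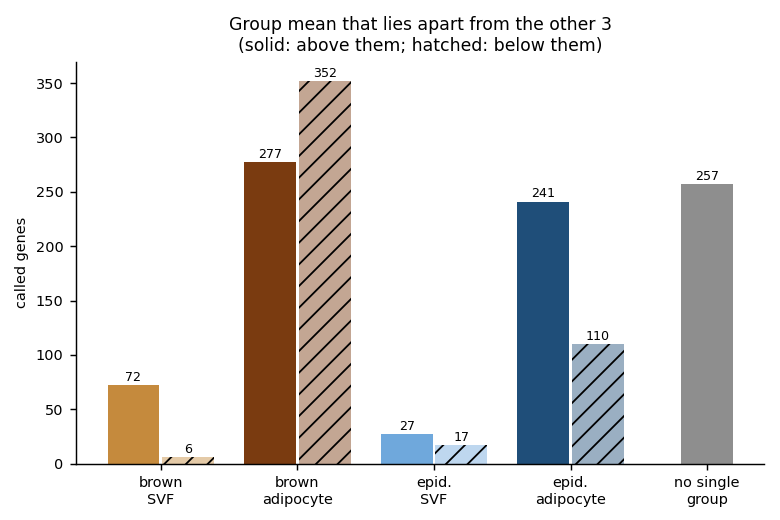
Number of called genes (vertical axis) by the group whose mean stands apart from the other 3, above them (solid) or below them (hatched), with genes of no single group in grey. Brown adipocytes have the most genes, 277 above and 352 below, in this fit; without epididymal adipocyte replicate 2 epididymal adipocytes have more.

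The leading genes were ranked among those with a proper symbol, well above background on all 12 arrays and called with and without epididymal adipocyte replicate 3. The largest positive interaction among them belonged to Fndc5, which codes for the membrane protein from which the secreted peptide irisin is cut. Its levels were -3.17, -3.21 and -1.69 in brown SVF, -2.82, -2.20 and -0.81 in brown adipocytes, 1.92, 1.73 and 2.78 in epididymal SVF and -2.63, -3.52 and -3.10 in epididymal adipocytes. The 3 epididymal SVF arrays lay above all other arrays, whose highest level was -0.81, and the brown fractions overlapped. The interaction was 5.98 ± 0.79 (SE, adjusted p = 0.00342), and 5.97 (adjusted p = 0.0114) without epididymal adipocyte replicate 3. It came from the fall in epididymal adipocytes against their SVF, -5.23 (adjusted p = 0.000398), beside 0.75 (adjusted p = 0.357) in brown fat. Another probe of Fndc5 gave 4.92. Fndc5 signal was thus highest in epididymal SVF, and brown adipocytes did not drive its value.

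The irisin-related genes listed with Fndc5 gave mixed values. Of 11 measured, Fndc5 included, 2 were higher, 1 was lower and 8 did not pass, with a median of -0.31 beside -0.0059 over all genes. Over all genes 2.57% were higher and 4.44% lower, and 1.19% and 2.2% without epididymal adipocyte replicate 3. These shares are the background of every list count below. Itgb3, an integrin chain, had -2.05 (adjusted p = 0.0369), and this call was lost without any 1 of 7 arrays and with all 18 arrays. Without epididymal adipocyte replicate 3 the 2 higher genes passed and none was lower. Esrra, a nuclear receptor that works with the coactivator Ppargc1a on mitochondrial genes, was driven by brown adipocytes: its levels were 2.00, 2.35 and 2.27 in brown SVF, 4.29, 3.94 and 4.71 in brown adipocytes, 1.45, 1.55 and 1.97 in epididymal SVF and 1.45, 1.62 and 1.93 in epididymal adipocytes. Its interaction was 2.10 ± 0.35 (SE, adjusted p = 0.00972), and 2.23 (adjusted p = 0.0164) without epididymal adipocyte replicate 3, and it kept the call without each of the 12 arrays in turn. For Ppargc1a itself the interaction was 0.94 ± 1.13 (SE, adjusted p = 0.605), and a dimmer probe had the opposite sign (-0.63).

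P2ry1 and Garnl3 were also driven from above by epididymal SVF. P2ry1, a receptor for extracellular nucleotides, was at 0.84, 1.08 and 0.61 there and at most 0.02 elsewhere, with an interaction of 2.61 ± 0.39 (SE, adjusted p = 0.00619). Garnl3 was at 1.13, 0.86 and 1.52 there and at most -0.44 elsewhere, with an interaction of 1.68 ± 0.32 (SE, adjusted p = 0.0163), though its call was lost with the mean of its probes and with all 18 arrays. Up to 4 dim genes per direction were picked. Each had to be well above background on all arrays of its highest group and on none of another group. The 4 picked with positive values showed the same form, which the selection set in part. The probes of Ldhc, a lactate dehydrogenase best known from testis, and Gdpd2 were well above background on the 3 epididymal SVF arrays and on none of the other 9. Those of the calcium sensor gene Hpca and the glutamate receptor gene Gria1 were so on the 3 epididymal SVF arrays and on 1 epididymal adipocyte array each. A level below background gives only a bound, taken from the lowest signal that counts as above background on each array. On that basis Hpca was at least 33.9-fold higher in epididymal than in brown SVF, Ldhc at least 13.2-fold, Gria1 at least 9.92-fold and Gdpd2 at least 5.93-fold. The interactions of these 4 genes, 4.88, 5.82, 5.00 and 4.34, rest on such levels; with all levels raised to a common floor they were 2.76, 1.39, 0.98 and 0.30, and Ldhc and Gdpd2 did not pass.

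From below, epididymal SVF drove Acta1, Sox10 and Btg1. Acta1, the skeletal muscle actin, was at -1.69, -1.65 and -1.58 in epididymal SVF, 3.15, 3.49 and 4.24 in epididymal adipocytes, 1.67, 2.41 and 1.17 in brown SVF and 2.60, 0.03 and 0.88 in brown adipocytes. The epididymal fractions did not overlap and the brown ones did. The interaction was -5.85 ± 0.80 (SE, adjusted p = 0.00412), and -5.54 (adjusted p = 0.0129) without epididymal adipocyte replicate 3. Sox10, a factor of Schwann cells, had -2.56 ± 0.46 (SE, adjusted p = 0.0139) and Btg1, an antiproliferative gene, -1.13 ± 0.27 (SE, adjusted p = 0.0339). The call of Btg1 was lost without any 1 of 8 arrays and with all 18. Without epididymal adipocyte replicate 3 no single group drove Btg1.

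Acot11 came second to Fndc5 among the leading positive genes and was driven by brown adipocytes. It codes for a thioesterase, known from brown fat, that frees fatty acids from coenzyme A. Its levels were -2.92, -2.44 and -1.65 in brown SVF, 0.77, 1.18 and 1.75 in brown adipocytes, -2.63, -2.95 and -2.40 in epididymal SVF and -3.40, -4.01 and -2.07 in epididymal adipocytes. All 3 brown adipocyte arrays lay above the other 9, and the epididymal fractions overlapped. The interaction was 4.07 ± 0.68 (SE, adjusted p = 0.0101), rising to 4.62 (adjusted p = 0.00477) without epididymal adipocyte replicate 3. In brown fat the fraction difference was 3.58 (adjusted p = 0.00042), and it was 3.66 on the arrays of one scan day and 3.40 on those of another; in epididymal fat it was -0.50 (adjusted p = 0.451). Of the 12 thioesterase genes measured, 2 were higher and 10 did not pass, with a median of 0.59, while 2.57% of all genes were higher. The call of the second gene, Them4 (1.00), was lost without any 1 of 9 arrays. Epididymal adipocyte replicate 3 was among them, which leaves 1 higher gene without it.

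Of the 10 leading positive genes, brown adipocytes drove 8. Among them, Gk (Gyk on the array), the glycerol kinase that lets fat cells reuse glycerol, was at 1.24, 0.44 and 0.54 in brown adipocytes and at most -2.40 elsewhere, with an interaction of 3.68 ± 0.80 (SE, adjusted p = 0.0252). Its other probes gave 1.42 and 1.35, the mean of its probes 2.15 (adjusted p = 0.0514), and its call was also lost when the first brown adipocyte array, the second epididymal SVF array or the first epididymal adipocyte array was left out. Me3, a mitochondrial malic enzyme, was at 0.53, 0.07 and 1.29 in brown adipocytes and at most -1.67 elsewhere, with 3.22 ± 0.48 (SE, adjusted p = 0.00566). Ntrk3, the receptor for the nerve growth factor relative neurotrophin-3, was at 2.16, 1.49 and 1.80 in brown adipocytes and at most 0.02 elsewhere, with 3.16 ± 0.61 (SE, adjusted p = 0.0163). The interactions of the motor protein gene Myo5b, the inositol phosphatase gene Impa2, the carbonic anhydrase gene Car14 and the adenylosuccinate synthase gene Adssl1 were 4.02, 2.90, 3.90 and 2.87. The call of Car14 was lost without any 1 of 7 arrays and that of Adssl1 without any 1 of 3, and with all 18 arrays Me3, Myo5b and Mapk13 did not pass. The kinase gene Mapk13 had no single driving group: it rose by 1.58 in brown and fell by 1.71 in epididymal adipocytes, with 3.30 ± 0.60 (SE, adjusted p = 0.014).

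**Figure D3:**
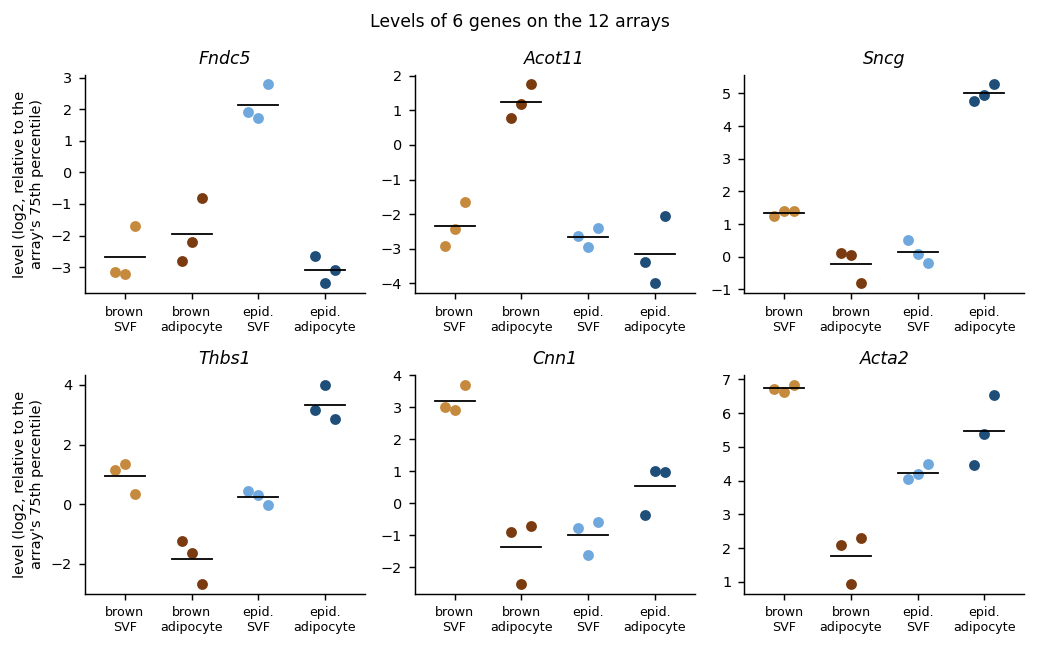
Levels of 6 genes on the 12 arrays (vertical axis, log2 relative to the 75th percentile of the array), with 1 point per array and a line at each group mean. Fndc5 stands out in epididymal SVF, Acot11 in brown adipocytes, Sncg in epididymal adipocytes and Cnn1 in brown SVF; Thbs1 and Acta2 are low in brown adipocytes without a single group standing apart.

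Several genes of mitochondrial fuel use were higher in the interaction. Of the fatty acid oxidation list, 8 of 20 were higher, none was lower and 12 did not pass, with a median of 1.48 and all 20 above 0. Of the citrate cycle list, 8 of 19 were higher, none was lower and 11 did not pass, with a median of 1.5 and all 19 above 0. Among 38 genes of the electron transport chain and its ATP synthase, 7 were higher, 31 did not pass and none was lower, with a median of 1.39 and all 38 above 0. Over all genes, 2.57% were higher. Every called member of these lists was driven by brown adipocytes. The medians of the fraction difference were 2.61, 2.40 and 2.26 in brown fat and 1.04, 0.83 and 0.84 in epididymal fat.

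Acaa2, the thiolase that ends each round of mitochondrial fatty acid oxidation, led the first list. Its levels were 5.21, 5.56 and 5.49 in brown SVF, 8.41, 7.75 and 8.82 in brown adipocytes, 4.69, 4.82 and 5.18 in epididymal SVF and 4.86, 4.73 and 5.29 in epididymal adipocytes. The brown fractions were apart by 2.91 (adjusted p = 7.91e-05) and the epididymal ones overlapped, with 0.07 (adjusted p = 0.876). The interaction was 2.84 ± 0.40 (SE, adjusted p = 0.00468), and 3.01 (adjusted p = 0.00862) without epididymal adipocyte replicate 3. Etfdh, which passes electrons from fatty acid oxidation to ubiquinone, had 2.24 ± 0.38 (SE, adjusted p = 0.0104), and Hadha, a subunit of the trifunctional protein, 2.01 ± 0.40 (SE, adjusted p = 0.0191). In the citrate cycle list Suclg1, a subunit of succinyl-CoA ligase, had 2.29 ± 0.44 (SE, adjusted p = 0.0159). The pyruvate dehydrogenase subunit gene Pdha1 had 2.17 and Idh3b, of isocitrate dehydrogenase, 1.95; the call of Pdha1 was lost without any 1 of 8 arrays and that of Idh3b without epididymal SVF replicate 2. Uqcrc2, a core subunit of complex III, had 1.92 ± 0.37 (SE, adjusted p = 0.0163), while the calls of Ndufb6 (1.83) and Cyc1 (1.81) were lost without 9 and 8 of the 12 single arrays. With all 18 arrays Hadha, Pdha1, Idh3b, Ndufb6 and Cyc1 did not pass, and in the deposited matrix Pdha1 had 1.01 (adjusted p = 0.2). Without epididymal adipocyte replicate 3 the 3 lists kept 6, 3 and 2 higher genes, with medians of 1.57, 1.47 and 1.42.

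The classical thermogenic genes gave mixed values. Of the thermogenic list, 5 of 29 were higher, none was lower and 24 did not pass, with a median of 0.77 and 20 of the 29 above 0. Ucp1, Cidea and Zic1, given below, had negative values with all 12 arrays, unlike most of the list. Without epididymal adipocyte replicate 3 there were 7 higher genes with a median of 1.03 for the list. Fabp3, at 3.57 (adjusted p = 0.0161), and Cpt1b, at 2.67 (adjusted p = 0.0465), passed there and not with all 12 arrays. Higher genes were 2.57% of all genes, and 1.19% without that array. The 5 include Acot11, glycerol kinase and Letmd1, a mitochondrial membrane protein with 2.13 ± 0.42 (SE, adjusted p = 0.0186). Ucp1 was at 3.64, 4.50 and 4.30 in brown SVF, 8.11, 7.24 and 7.89 in brown adipocytes, -5.61, -2.29 and -7.58 in epididymal SVF and -3.35, -1.05 and 4.51 in epididymal adipocytes. It was high in both brown fractions, and its epididymal levels spread widely. The interaction of Ucp1 was -1.60 ± 2.44 (SE, adjusted p = 0.693), with a standard error above its size, and 0.64 (adjusted p = 0.837) without epididymal adipocyte replicate 3; its sign also turned with the common floor (0.47) and with normexp background correction (0.28). Cidea, a lipid droplet protein, had -2.11 ± 1.47 (SE, adjusted p = 0.362), and -0.85 (adjusted p = 0.659) without that array. For the brown fat factor gene Zic1 it was -2.90 ± 1.28 (SE, adjusted p = 0.169). A p-value above the threshold does not show equal fraction differences in these genes.

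General adipocyte genes gave both signs. Of the mature adipocyte list, none of 26 was higher, 1 was lower and 25 did not pass, with a median of -0.30, and without epididymal adipocyte replicate 3 none was called by limma. The lower gene is 3.85% of the list, near the 4.44% of all genes that were lower. The values were -1.27 ± 1.15 (SE, adjusted p = 0.483) for Adipoq, -0.43 ± 1.00 (SE, adjusted p = 0.805) for the droplet coat gene Plin1 and -2.50 ± 1.00 (SE, adjusted p = 0.14) for the leptin gene Lep. In brown SVF only 1 array had Lep well above background, and it passed with the common floor, at -4.11 (adjusted p = 0.0148), with normexp background correction, at -3.30 (adjusted p = 0.00973), and in the deposited matrix, at -3.42 (adjusted p = 0.00748). For Adipoq the value was -1.24 (adjusted p = 0.572) without epididymal adipocyte replicate 3. Without brown SVF replicate 2 the value of Adipoq had its highest adjusted p (0.906). The lower gene was Plin4, another droplet coat gene, with -2.74 ± 0.72 (SE, adjusted p = 0.0464), whose call was lost without any 1 of 8 arrays and with all 18. Of the 19 genes of fatty acid and triglyceride synthesis none was called by limma and 2 had an unadjusted p under 0.05, with a median of 0.51.

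Many negative interactions came from brown adipocytes that lay below the other 3 groups. Ctgf (Ccn2), a matrix-associated growth factor induced by TGF-beta, was at 1.43, -0.23 and 0.46 in brown adipocytes and at 4.18, 4.81 and 4.40 in brown SVF, 3.74, 4.35 and 4.56 in epididymal SVF and 3.76, 4.32 and 4.10 in epididymal adipocytes. The brown adipocyte arrays lay below all others, and the epididymal fractions overlapped. The interaction was -3.75 ± 0.55 (SE, adjusted p = 0.00547), and -3.73 (adjusted p = 0.017) without epididymal adipocyte replicate 3. The lipoprotein receptor gene Lsr had -3.37 ± 0.59 (SE, adjusted p = 0.0121), and it did not pass with all 18 arrays in the fit.

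Several matrix genes were lower in the interaction. Of the extracellular matrix list, 10 of 28 were lower, none was higher and 18 did not pass, with a median of -1.58; over all genes 4.44% were lower. Brown adipocytes drove 9 of the 10. Dcn, the proteoglycan decorin, was at 7.88, 8.15 and 7.89 in brown SVF, 4.91, 4.20 and 4.84 in brown adipocytes, 8.16, 7.75 and 7.95 in epididymal SVF and 7.03, 7.10 and 7.57 in epididymal adipocytes. It fell in brown adipocytes by 3.33 and in epididymal adipocytes by 0.72, and its interaction was -2.61 ± 0.34 (SE, adjusted p = 0.00342); a second probe, dim and well above background on 7 arrays, gave 0.35. The call of Dcn was lost with the mean of its probes, at -1.13 (adjusted p = 0.107), and with all 18 arrays, and the value was -2.44 (adjusted p = 0.00933) without epididymal adipocyte replicate 3. The list led with Mmp3, a secreted metalloproteinase, at 2.42, 2.92 and 3.09 in brown SVF, -1.77, -3.04 and -1.91 in brown adipocytes, -0.61, -0.89 and 0.91 in epididymal SVF and 0.19, 1.21 and 0.14 in epididymal adipocytes. The brown fractions were far apart and the epididymal ones overlapped, and the interaction of Mmp3 was -5.76 ± 0.72 (SE, adjusted p = 0.00262), and -5.95 (adjusted p = 0.00842) without epididymal adipocyte replicate 3. Timp1, an inhibitor of such proteases, had -2.50, and its call was lost without any 1 of 9 arrays and with all 18. Without epididymal adipocyte replicate 3, 8 matrix genes were lower.

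Thbs1 codes for thrombospondin, a secreted matrix glycoprotein that activates TGF-beta and restrains vessel growth. Its levels were 1.15, 1.35 and 0.33 in brown SVF, -1.22, -1.62 and -2.66 in brown adipocytes, 0.46, 0.33 and -0.03 in epididymal SVF and 3.15, 4.01 and 2.88 in epididymal adipocytes. It was low in brown adipocytes and high in epididymal adipocytes, and the arrays of the fractions overlapped in neither depot. In brown fat it fell by 2.78 (adjusted p = 0.00078) in adipocytes and in epididymal fat it rose by 3.09 (adjusted p = 0.00103). The interaction was -5.87 ± 0.595 (SE, adjusted p = 0.00102), and -6.10 (adjusted p = 0.00306) without epididymal adipocyte replicate 3. Both adipocyte groups contributed, so no single group drove it, and its other probes gave -4.16 and -3.99. Thbs2, a close relative, had -4.21 ± 0.60 (SE, adjusted p = 0.00479), with -2.76 in brown and 1.45 in epididymal fat. Thbs4 had -5.85 ± 1.36 (SE, adjusted p = 0.0315); it was at 1.81, 3.85 and 2.68 in brown SVF and at most -0.83 elsewhere, and its call was lost without any 1 of 7 arrays, after quantile normalization and with all 18 arrays. Of 17 thrombospondin and receptor genes, 7 were lower, none was higher and 10 did not pass, with a median of -0.69. Without epididymal adipocyte replicate 3, 3 were lower. The share of lower genes over all genes was 4.44%, and 2.2% without that array.

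Of 20 ligands, receptors and targets of TGF-beta signalling, 7 were lower, none was higher and 13 did not pass, with a median of -1.38. In the fit without epididymal adipocyte replicate 3, 6 were lower. Lower genes were 4.44% of all genes, and 2.2% without that array. Besides Thbs1 and Ctgf, the actin-binding gene Tagln was among the 3 largest in the list. It was at 6.22, 6.16 and 6.60 in brown SVF, 2.77, 1.88 and 2.72 in brown adipocytes, 4.38, 4.59 and 4.67 in epididymal SVF and 4.81, 5.19 and 5.65 in epididymal adipocytes. Brown adipocytes lay lowest and brown SVF highest, and the interaction was -4.54 ± 0.41 (SE, adjusted p = 0.000716), and -4.32 (adjusted p = 0.00213) without epididymal adipocyte replicate 3, with a second probe at -4.78.

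Contractile genes of vessel wall and muscle were 5 of the 10 leading negative genes: Acta2, Cnn1, Actc1, Acta1 and Tagln. Of the mural cell list, 6 of 12 were lower, none was higher and 6 did not pass, with a median of -1.60. All 6 were lower without epididymal adipocyte replicate 3 as well. Lower genes were 4.44% of all genes, and 2.2% without that array. Acta2, the smooth muscle actin, was at 6.72, 6.63 and 6.84 in brown SVF, 2.09, 0.95 and 2.30 in brown adipocytes, 4.04, 4.20 and 4.48 in epididymal SVF and 4.48, 5.37 and 6.55 in epididymal adipocytes. The brown fractions were far apart and the epididymal ones overlapped. The interaction was -6.18 ± 0.68 (SE, adjusted p = 0.00124), and -5.64 (adjusted p = 0.00252) without epididymal adipocyte replicate 3; its 4 other probes ranged from -1.71 to -6.81. Cnn1, the smooth muscle calponin, was at 3.02, 2.91 and 3.70 in brown SVF and at most 1.01 elsewhere, so that brown SVF drove its interaction of -6.12 ± 0.75 (SE, adjusted p = 0.00231). Myh11, the smooth muscle myosin heavy chain, was driven the same way, at 4.29, 4.32 and 4.50 in brown SVF and at most 2.17 elsewhere, with -4.01 ± 0.54 (SE, adjusted p = 0.00358). Pcp4l1, also highest in brown SVF, had -3.44 ± 0.46 (SE, adjusted p = 0.00342). In bulk fractions fewer cells of a type and less RNA per cell cannot be told apart.

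Actc1, the cardiac actin, was at 2.75, 2.79 and 3.23 in brown SVF, -1.64, -2.60 and -1.35 in brown adipocytes, 0.44, 0.64 and 0.58 in epididymal SVF and 0.01, 1.98 and 2.87 in epididymal adipocytes. Brown adipocytes lay below all other arrays, with an interaction of -5.85 ± 0.84 (SE, adjusted p = 0.00489), and -5.22 (adjusted p = 0.00862) without epididymal adipocyte replicate 3. Actc1 and Acta1 both had negative interactions, through different groups, Actc1 through brown adipocytes and Acta1 through epididymal SVF. Promoter windows of 300 bases around the start of the gene, 250 before it and 50 after it, came from RefSeq (GRCm38.p6) and matched 15 of the 20 leading genes. They were searched on both strands for the CArG box, the binding motif of serum response factor, and for TATAAA. The CArG box was taken in its exact form, CC and GG around a core of only A and T. Boxes with another letter in the core were not counted. Among these 15 genes 2 held a CArG box and 4 held TATAAA, and of all 32851 windows 1.63% held the first and 13.6% the second. The 2 with a CArG box were Actc1 and Acta1, and their windows are shown for that reason. The window of Acta2, also an actin gene with a negative interaction, held neither motif in this exact form, and looser forms were not searched for. A match describes the letters of the window and was not tested as a binding site. Both windows lie on the minus strand and are written 5′ to 3′ along the gene, with the CArG box and TATAAA in capitals; Actc1 is at chr2:114052826-114053125 and Acta1 at chr8:123894726-123895025.
Actc1: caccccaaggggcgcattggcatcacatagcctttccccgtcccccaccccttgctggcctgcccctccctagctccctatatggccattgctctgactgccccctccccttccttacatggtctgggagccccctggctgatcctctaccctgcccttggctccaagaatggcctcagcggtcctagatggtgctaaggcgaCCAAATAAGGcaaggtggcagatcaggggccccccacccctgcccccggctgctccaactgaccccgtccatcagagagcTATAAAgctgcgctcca
Acta1: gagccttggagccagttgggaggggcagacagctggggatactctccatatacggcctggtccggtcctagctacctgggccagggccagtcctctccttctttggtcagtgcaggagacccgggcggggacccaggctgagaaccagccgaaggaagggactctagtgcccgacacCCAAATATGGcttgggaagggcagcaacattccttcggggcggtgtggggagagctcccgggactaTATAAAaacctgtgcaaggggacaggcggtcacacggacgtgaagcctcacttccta
The CArG box begins 47 bases before the start in Actc1 and 73 bases before it in Acta1. TATAAA begins 33 bases after the start in Actc1 and 7 bases before it in Acta1. These distances are counted from the RefSeq start, and where transcription begins in these samples was not tested.

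Epididymal adipocytes drove negative interactions when they lay above the rest. Sncg, the gamma synuclein gene, known from white adipocytes and neurons, had the largest negative value among the leading genes. It was at 1.24, 1.40 and 1.39 in brown SVF, 0.13, 0.05 and -0.82 in brown adipocytes, 0.51, 0.08 and -0.19 in epididymal SVF and 4.75, 4.96 and 5.27 in epididymal adipocytes. The epididymal adipocyte arrays lay above all others by a wide margin, and brown adipocytes lay below brown SVF. The interaction was -6.42 ± 0.40 (SE, adjusted p = 0.000147), and -6.28 (adjusted p = 0.00107) without epididymal adipocyte replicate 3. Nnat, an imprinted gene for a small membrane protein, rose in both depots, by 1.74 in brown and 5.00 in epididymal fat, with an interaction of -3.26 ± 0.49 (SE, adjusted p = 0.00625). Plagl1, an imprinted zinc finger gene, was at 3.45, 3.49 and 2.73 in epididymal adipocytes and at most 0.86 elsewhere, with -4.02 ± 0.55 (SE, adjusted p = 0.00397). From below, epididymal adipocytes drove Dffb (1.74), Tyk2 (1.60) and Ndor1 (1.40), with smaller values. The calls of Dffb and Tyk2 were lost without epididymal SVF replicate 2, and that of Tyk2 also without brown SVF replicate 3. With all 18 arrays Tyk2 and Ndor1 did not pass, and the mean of the probes of Ndor1 gave 0.82 (adjusted p = 0.0949). These values rest on epididymal adipocytes themselves, so group and scanner cannot be told apart in them. The same limit holds for every other interaction, since each includes that group.

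Some genes of progenitors and macrophages were lower in the interaction. Of the progenitor and fibroblast list, 5 of 18 were lower, none was higher and 13 did not pass, with a median of -1.07. In the fit without epididymal adipocyte replicate 3, 1 was lower. Beside this list and those below, 4.44% of all genes were lower, and 2.2% without that array. Pdgfra, the receptor that marks adipose progenitors, was at 1.99, 2.29 and 2.82 in brown SVF, -1.96, -2.32 and -1.74 in brown adipocytes, 3.01, 2.81 and 3.53 in epididymal SVF and 0.55, 1.13 and 0.99 in epididymal adipocytes. It fell in the adipocytes of both depots, by 4.37 in brown and 2.23 in epididymal fat, and its interaction was -2.14 ± 0.40 (SE, adjusted p = 0.0156), and -2.10 (adjusted p = 0.0387) without epididymal adipocyte replicate 3; with all 18 arrays it was not called (adjusted p = 0.167). Of the macrophage list, 4 of 17 were lower, none was higher and 13 did not pass, with a median of -2.00, and none was called by limma without epididymal adipocyte replicate 3, where 6 had an unadjusted p under 0.05. The macrophage gene Adgre1 had -2.19 ± 0.88 (SE, adjusted p = 0.141) and the leukocyte gene Ptprc -1.65 ± 0.46 (SE, adjusted p = 0.0551). Ptprc passed with the mean of its probes, at -1.80 (adjusted p = 0.00961). Both passed with array weights, a setting that called 5314 genes. Ptprc did not pass with all 18 arrays (adjusted p = 0.574), normexp (0.135), the deposited matrix (0.0729) or quantile normalization (0.0661). Adgre1 had -1.08 (adjusted p = 0.24) with the mean of its probes, and its dimmer probe gave 0.027. The median level of the 17 macrophage genes ran from -2.74 to -0.90 on the brown adipocyte arrays, from 1.1 to 2.22 on the epididymal adipocyte arrays, from 1.26 to 1.67 in brown SVF and from 2.07 to 3.35 in epididymal SVF. Brown adipocytes thus carried the lowest signal of these genes, while the range of epididymal adipocytes overlapped that of both SVFs; the part of such cells in the interactions above was not tested. The median level of the 12 mural genes ran from 1.71 to 2.27 on the brown adipocyte arrays, from 2.60 to 3.14 on the epididymal adipocyte arrays, from 3.73 to 4.03 in brown SVF and from 2.07 to 3.00 in epididymal SVF. Their part was likewise not tested. Of the 14 endothelial genes 1 was lower, with and without epididymal adipocyte replicate 3, and 13 did not pass, with a median of 0.0091; the lower gene, the von Willebrand factor gene Vwf, had -2.91 ± 0.49 (SE, adjusted p = 0.0101).

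Muscle and nerve genes were also measured. Of the skeletal muscle list, 4 of 16 were lower, none was higher and 12 did not pass, and of the Schwann and nerve list 4 of 10 were lower, none was higher and 6 did not pass. Without epididymal adipocyte replicate 3 the lists had 2 and 3 lower genes. The share of lower genes over all genes was 4.44%, and 2.2% without that array. Besides Acta1, the muscle genes with the largest values were Myog and Pax7, both dim. Myog, a muscle differentiation factor, was well above background on the 3 brown SVF arrays, on 1 epididymal adipocyte array and on no other, and its interaction was -5.92, which was -0.77 (adjusted p = 0.39) with levels raised to a common floor and -1.76 (adjusted p = 0.0881) with normexp background correction. Pax7, of muscle stem cells, had -2.81, a call lost without any 1 of 7 arrays, and at the common floor its value turned to 0.0903. The muscle enzyme gene Ckm, which defines mature muscle, was well above background on 3, 2, 0 and 1 arrays of brown SVF, brown adipocytes, epididymal SVF and epididymal adipocytes. Prx (-2.57) and Sox10 of the nerve list kept the call without each of the 12 arrays in turn.

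Mesothelial genes came next. Of 12, 2 were higher, 1 was lower and 9 did not pass, and 1 was higher and 1 lower without epididymal adipocyte replicate 3. The median was 1.49, with 8 of the 12 above 0, and only 1 gene was well above background on all 12 arrays. The shares over all genes were 2.57% higher and 4.44% lower, and 1.19% and 2.2% without that array. Wt1, the factor that defines mesothelium, was at 1.23, 1.70 and 2.21 in epididymal SVF and -0.55, -0.13 and -0.15 in epididymal adipocytes and below background on all 6 brown arrays. It was at least 186-fold higher in epididymal than in brown SVF and at least 13.6-fold higher in epididymal than in brown adipocytes. Its interaction of 3.76 therefore sets a measured fall of 1.99 in epididymal adipocytes against brown levels below background. The rest of it, 1.76, is a difference between 2 brown groups that were both below background. The interaction was 1.99 (adjusted p = 0.00725) with the common floor and 2.02 (adjusted p = 0.00304) in the deposited matrix. After quantile normalization it was 2.27 (adjusted p = 0.00586). With all 18 arrays Wt1 did not pass (adjusted p = 0.494). Msln, another mesothelial marker, had the opposite sign, -2.53 ± 0.86 (SE, adjusted p = 0.0939), and was not well above background on the brown adipocyte arrays. Upk3b had an interaction of 3.54, but its epididymal fractions overlapped and their difference, -1.63 (adjusted p = 0.0602), did not pass. Its call was lost without any 1 of 9 arrays and with the common floor, at 1.63 (adjusted p = 0.252), the deposited matrix, at 1.89 (adjusted p = 0.129), quantile normalization, normexp and all 18 arrays. Gpm6a, the lower gene with -3.48 ± 0.66 (SE, adjusted p = 0.016), was well above background on all arrays except those of brown adipocytes, where it was at least 4.20-fold lower than in brown SVF. Its call was lost with the common floor, at -0.83 (adjusted p = 0.442), with normexp, at -0.32 (adjusted p = 0.773), in the deposited matrix, at -1.26 (adjusted p = 0.176), and with all 18 arrays.

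The remaining dim genes gave negative values. The probe of Nap1l3 was well above background on 9 arrays and on none of brown adipocytes. Nap1l3 was at least 15.3-fold lower in brown than in epididymal adipocytes, with -6.35, and -3.44 at the common floor. Bves, a membrane protein of muscle, was at least 15.05-fold higher in brown than in epididymal SVF. Its interaction of -5.68 rests on levels below background and was -1.80 at the common floor, -1.83 with normexp and -2.17 in the deposited matrix. The cytokine gene Il33 (9230117N10Rik on the array) had -2.92 and was not well above background on the brown adipocyte arrays; with normexp background correction its value turned to 0.18, and it did not pass with the common floor, in the deposited matrix, after quantile normalization or with all 18 arrays.

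**Figure D4:**
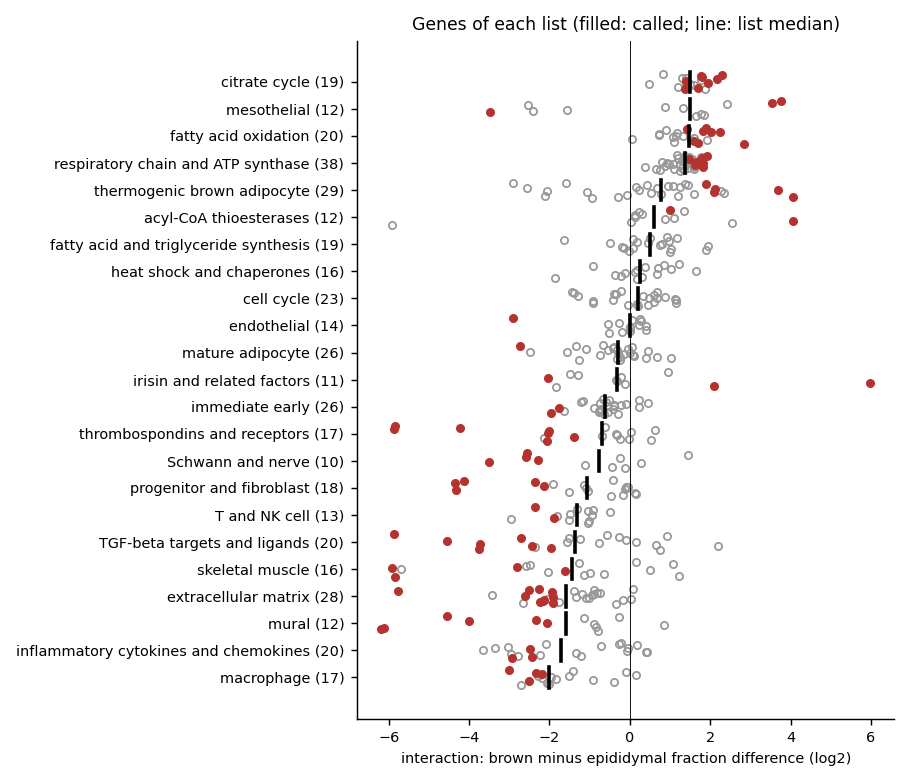
Interaction (horizontal axis, log2) of each measured gene of the lists with at least 10 genes, 1 point per gene, filled where the gene was called, with a line at the list median and the number of genes in brackets. The 3 mitochondrial lists lie wholly to the right of 0, and matrix, mural and macrophage genes lie mostly to the left.

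Without epididymal adipocyte replicate 3, 658 genes were called (3.39%), 231 of them higher (1.19%) and 427 lower (2.2%). Of these, 630 were also called with all 12 arrays and had the same sign, which is 46.4% of the 1359 and 95.7% of the 658. All 1359 genes kept the sign of their interaction, and 1292 kept the same driving group or the lack of one; they were chosen as called on arrays that include the remaining 11, so this is a description. Fewer genes were called without each of some other arrays: 470 without epididymal SVF replicate 2, 583 without brown SVF replicate 3 and 654 without brown adipocyte replicate 1. Among the 20 leading genes, which were chosen to pass both ways, 17 kept the call without each of the 12 arrays in turn and 17 in the fit with all 18 arrays. Of all 82 called genes selected for naming, 51 kept the call without each array in turn and 43 in the fit with all 18 arrays.

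**Figure D5:**
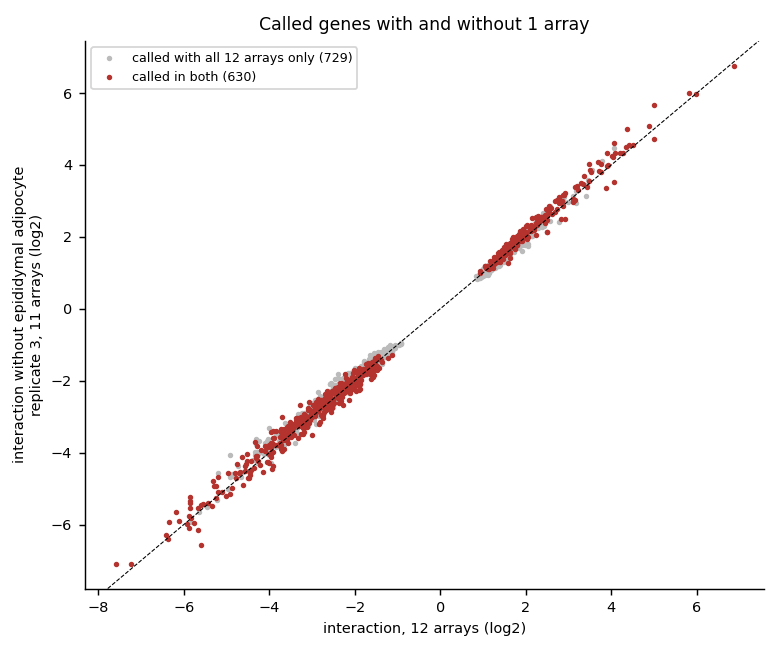
Interaction of the 1359 called genes with 12 arrays (horizontal axis, log2) and without epididymal adipocyte replicate 3 (vertical axis, log2), 1 point per gene, with a dashed line of equality. The 630 genes called both ways are red and the 729 others grey, and all lie in the same quadrant either way.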

How the data were processed

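RNA of 18 samples was hybridised to one-colour Agilent 4x44K mouse arrays, and 12 of them enter this comparison. Per the file headers, the authors read the images with Feature Extraction, whose processed signal is a background-corrected intensity per spot. The deposited series matrix holds log2 values whose normalization is not given in the sources used here. Spots that are controls or carry an outlier mark were dropped. For each remaining spot the log2 of the 75th percentile of the array was subtracted from the log2 signal. The level is the mean of these log2 values over the spots of a probe. A probe was kept if all 3 arrays of 1 or more of the 4 groups had it well above background (28486 of 41174). For each of the 19383 genes the brightest such probe was taken, under the name in the array files.

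A mean per group was fitted to the 12 arrays with limma 3.58.1 in R 4.3.3 (lmFit and eBayes, two-sided, residual df 8, prior df 2.74). The Benjamini-Hochberg adjustment ran over the 19383 genes, with a threshold of 0.05. Errors are standard errors with 3 arrays a group, whose number limits the precision. The scripts were tested on simulated data. A level of a group below background on all its arrays is given as a bound.

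To be named, a gene needed a proper symbol and a call of the same sign with and without epididymal adipocyte replicate 3. Among genes above background on all 12 arrays these are the 10 per direction with the largest smaller value of the 2, and the 3 per driving group and direction with the largest gap. Up to 4 dim genes per direction, up to 3 called genes per list, which need only the call with all arrays, and the marker genes were added; some of the selected genes are not reported here. The members, the 28 lists and these rules were chosen with earlier results of these data known. The 26 alternatives are in the closing section. The background correction uses median signals in place of the planned mean signals, which 9 of the 12 files lack; that and the common floor were chosen after seeing the data.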

Additional observations from a re-analysis of the deposited data

Results flagged for a closer look

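Flagged here are the count and the named genes whose fraction difference differed between brown and epididymal fat by a test of that difference itself (limma, adjusted p under 0.05). The count is 1359 genes. Each value is the interaction on the log2 scale, brown minus epididymal.

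With brown adipocytes above the other 3 groups, the interactions were Acot11 4.07, Myo5b 4.02, Car14 3.90, Gyk (Gk) 3.68, Me3 3.22, Ntrk3 3.16, Impa2 2.90, Adssl1 2.87, Acaa2 2.84, Suclg1 2.29, Etfdh 2.24, Pdha1 2.17, Letmd1 2.13, Esrra 2.10, Hadha 2.01, Idh3b 1.95, Uqcrc2 1.92, Ndufb6 1.83, Cyc1 1.81 and Them4 1.00. With brown adipocytes below the others they were Actc1 -5.85, Tagln -4.54, Sfrp4 -4.34, Dpp4 -4.33, Thbs2 -4.21, Wnt2 -4.14, Ctgf (Ccn2) -3.75, Gpm6a -3.48, Lsr -3.37, Xlkd1 (Lyve1) -3.00, 9230117N10Rik (Il33) -2.92, Vwf -2.91, Dcn -2.61, Timp1 -2.50, Cd163 -2.50, Ccl11 -2.43, Thy1 -2.37, Mrc1 -2.34, Pdgfra -2.14 and Itgb3 -2.05.

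Where brown SVF stood apart, the values were Cnn1 -6.12, Thbs4 -5.85, Bves -5.68, Myh11 -4.01, Pcp4l1 -3.44, Prx -2.57 and Cxcl14 -2.49 with brown SVF above the other groups, and Axin2 2.24 with it below. For epididymal SVF above the other groups they were Fndc5 5.98, Ldhc 5.82, Gria1 5.00, Hpca 4.88, Gdpd2 4.34, P2ry1 2.61 and Garnl3 1.68, and for epididymal SVF below them Acta1 -5.85, Pax7 -2.81, Sox10 -2.56, Cyr61 (Ccn1) -1.95 and Btg1 -1.13.

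Epididymal adipocytes lay above the rest for Sncg -6.42, Nap1l3 -6.35, Plagl1 -4.02, Nnat -3.26 and Cd4 -1.89, and below the rest for Dffb 1.74, Tyk2 1.60 and Ndor1 1.40. No single group stood apart for Wt1 3.76, Upk3b 3.54 and Mapk13 3.30 on the positive side and Acta2 -6.18, Myog -5.92, Thbs1 -5.87, Mmp3 -5.76, S3-12 (Plin4) -2.74, Csf3r -2.70 and Fosl2 -1.76 on the negative side. With levels raised to a common floor, 65 of the 82 called genes selected for naming passed. That floor gave Sfrp4 -3.03 (adjusted p = 0.0901), Wnt2 -1.91 (0.273), Lyve1 -1.65 (0.159), Csf3r -0.67 (0.222) and Cd4 -0.40 (0.238), none of which passed. Without single arrays Cd4 kept its call in 2 and Wnt2 in 3 of the 12 fits. The other probes of Dpp4 gave -3.94 and 0.99. Without epididymal adipocyte replicate 3 no single group drove Wnt2 or Btg1. Groups of 3 arrays are too small for the check on single outlying samples, which was not made.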

How the results depend on the processing

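Of the 92 genes selected for naming, 82 were called, and their interactions kept their sign under every one of the 26 alternatives that measured them, except Il33 (9230117N10Rik), at 0.18 with normexp background correction of the median signals, and Pax7, at 0.0903 with levels raised to a common floor. The cause was not tested. Among the selected genes that were not called, Ucp1 turned sign with the floor, with normexp and without epididymal adipocyte replicate 3, Plin1 with array weights and without brown SVF replicate 2, and Pecam1 with array weights, with the mean of its probes and without epididymal SVF replicate 3. When a single array was left out, calls of named genes stayed on their side of the threshold in 920 of 1104 values, were lost in 182 and gained in 2; under the other settings they stayed in 1119 of 1263, were lost in 132 and gained in 10.

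The count of called genes, 1359, was 5314 with array weights, 611 with no filter on dim probes (more genes tested), 782 with normexp, 399 with all 18 arrays and 470 to 3006 without single arrays. Higher genes numbered 2019 with array weights, 975 with the floor, 808 in the deposited matrix, 154 with no filter, 801 after quantile normalization, 104 with all 18 arrays, 751 with trend and robust eBayes and 117 to 706 without single arrays. Lower genes numbered 473 with probes above background on all 12 arrays (fewer genes tested), 3295 with array weights, 457 with no filter, 396 with normexp, 295 with all 18 arrays and 353 to 2305 without single arrays. The block values were 1322 genes with slide and 1396 with scan day as a random block; a fixed block could not be fitted, since epididymal adipocytes share no slide or scan day with another of the 4 groups.

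A replicate block on the numbers in the labels gave 1871 genes, and a replicate block within depot 2284 (461 higher and 1823 lower). The numbers were not taken as pairing the samples: the deviations of same-numbered brown arrays correlated at -0.12, -0.053 and 0.389, and those of epididymal arrays at 0.426, 0.483 and 0.139. In epididymal fat each number thus correlated best with its own, as a hint from the data.

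Of the differences behind the interaction, brown fraction genes were 9194 with no filter. Epididymal fraction genes were 4381 with probes above background on all arrays and 4158 to 6905 without single arrays. SVF depot genes were 338 with probes above background on all arrays, 1535 with array weights, 250 with the block within depot, 350 with all 18 arrays and 489 to 845 without single arrays. The share driven by brown SVF was 2.42% with probes above background on all arrays, 2.75% with array weights, 9.77% with all 18 arrays and 2.93% to 10.4% without single arrays. The share driven by brown adipocytes was 25.1% to 58.5% without single arrays. Epididymal adipocytes drove a larger share than brown adipocytes without epididymal adipocyte replicate 2, with the block within depot and after quantile normalization. The share driven by epididymal SVF was 4.88% with the floor, 5.24% in the matrix, 7.42% with normexp and 2.03% to 5.43% without single arrays. The share driven by epididymal adipocytes was 44.5% with the block within depot and 15.5% to 56.8% without single arrays. With 3 arrays a group and 778 of the 1359 genes above background on all 12 arrays, the levels of the others rest in part on signal near background.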
